A study of Mus musculus with 56 samples.

Results

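ICRF-193, a bisdioxopiperazine that inhibits topoisomerase II, was given to cultured mouse cortical neurons, and their RNA was compared with that of neurons given the vehicle. The comparison holds the 3 arrays titled for ICRF-193 at 3 µM and the 3 arrays titled for its vehicle, 6 of the 56 Affymetrix arrays of the study, and every probe set of the Mouse430_2 array was read. The study, by its title, asked how topoisomerase inhibitors act on candidate genes for autism, and its other arrays held topotecan, irinotecan, DRB, oxidants and lentiviral shRNAs. In both groups the neurons came from C57BL6 embryos of embryonic day 13 to 15 and were kept in culture for 7 days before the addition. RNA was taken 24 or 72 h later, and the labels do not say which of these times holds for the ICRF-193 arrays. No genotype, sex or pooling of embryos is given, and the vehicle is not named. The sample descriptions of these arrays name other drugs, so the groups follow the titles and the treatment field. Nothing in the labels says that the 3 arrays of a group came from separate cultures, and p-values then measure the spread between these arrays, which may be technical.

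Topoisomerase II passes one DNA duplex through a break in another and so removes the supercoils and tangles that polymerases leave behind. Vertebrates have an alpha form, needed by dividing cells, and a beta form, which is the main form in neurons that have left the cell cycle. ICRF-193 holds the enzyme as a closed clamp on DNA after the strands have been rejoined, unlike topotecan, which traps topoisomerase I on a nicked strand. Neurons are known for very long genes that encode synaptic and adhesion proteins.

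The arrays gave 45101 probe sets, and 10916 genes were bright enough to test (1 probe set a gene, mean log2 intensity of at least 7.04). With ICRF-193, 905 genes (8.29%) were higher and 1126 (10.3%) were lower at a limma p-value adjusted below 0.05, together 18.6% of the genes. A gene past this threshold is said below to have risen or fallen. The count was 1286 with no filter on dim genes. With the spread estimated over all 12 arrays of the type it was 39 (12 higher and 27 lower), and 108 of the genes chosen for naming then no longer passed. Those that passed in that fit too include Hapln1, Gpc5, Lingo2, Nrxn3, Cntn5, Dcc, Rbfox1, Kcnip2, Dpysl4, Pxdn, Aldh1a3, Chodl and Prag1. Most changes were small. The median size was 0.251 on the log2 scale (median standard error over all genes 0.047), 144 genes changed by at least 1.5-fold (53 higher and 91 lower), 24 by at least 2-fold (7 higher and 17 lower) and 2 by at least 3-fold, both lower. Of the falls, 48 ended at an ICRF-193 mean under 7.04, where a level is not reliable. These genes entered the test through their mean over all 12 arrays of the type, those of topotecan and its vehicle included. In 39.2% of all tested genes the groups did not overlap (all ICRF-193 arrays above the vehicle arrays in 18.5%, below them in 20.7%), and this held for 2029 of the 2031 genes that passed. The balance of rises and falls depended on scaling: after a new quantile normalization of the 6 arrays, which moved the median change of all genes from 0.003 to 0.02, 1141 genes rose and 931 fell. In a fit with the replicate number as a block, 1385 rose and 1504 fell. The counts also depended on single arrays. They were 885 without ICRF-193 replicate 2, 923 without ICRF-193 replicate 3, 1213 without vehicle replicate 1 and 1239 without vehicle replicate 2. In bulk RNA of this kind, fewer cells of a type and less RNA per cell cannot be told apart.

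The 6 arrays correlated at 0.9937 to 0.9985 over all probe sets, with mean intensities of 571.0 to 577.3. ICRF-193 replicate 3 had the lowest correlations, 0.9937 to 0.9953 with the vehicle arrays. ICRF-193 replicates 1 and 2 correlated with it at 0.9965 and 0.9967, less than with vehicle replicate 3 (0.9975 and 0.9972). Vehicle replicate 3 stood apart in genes of fibroblasts, meninges and mural cells, whose summed intensity over 19 genes was 38452 there and 29628 to 31171 on the other 5 arrays. Without that array 2822 genes passed.

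The transcripts of the drug's own targets were measured first. Top2b, which encodes the beta form, read 11.60, 11.64 and 11.61 (log2 intensity, as for all levels below) with ICRF-193 and 11.54, 11.59 and 11.50 with vehicle. The ICRF-193 values were just above the vehicle values, but the change of 0.08 ± 0.039 (standard error, as below) did not pass (adjusted p = 0.217). In the limma fit of all probe sets, a dim probe set of Top2b was higher (0.29 ± 0.058, adjusted p = 0.0358). The remaining one also had its ICRF-193 arrays above the vehicle arrays and did not pass (0.20 ± 0.058, adjusted p = 0.103). Top2a, the alpha form, differed by -0.13 ± 0.10 and its groups overlapped (adjusted p = 0.414). Top1, the target of topotecan, differed by 0.05 ± 0.039 (adjusted p = 0.363), and Tdp2, which removes topoisomerase II from DNA ends, by 0.12 ± 0.057 (adjusted p = 0.196). These arrays measure RNA and not the enzyme that the drug binds. Among 22 topoisomerase and repair genes, 1 rose and 1 fell, and with the replicate block 4 rose and 1 fell. The gene that rose was Top1mt, the mitochondrial topoisomerase (0.28 ± 0.067), and the gene that fell was Lig4, the ligase of end joining (-0.26 ± 0.050). Without any 1 of the arrays other than vehicle replicate 3, no gene of this list rose. Of 16 genes for CTCF, cohesin and condensin, the proteins that hold chromatin loops, 1 rose (Smc2, 0.21 ± 0.056, not without ICRF-193 replicate 2 or 3 or vehicle replicate 1, and 2 rises with the replicate block) and none fell by limma, with 3 lower at an unadjusted p below 0.05.

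The share of genes that fell was highest among the longest genes. Gene span was taken as the distance between the annotated ends in RefSeq. Of 150 tested genes over 500 kb, 105 fell (70.0%) and 4 rose, with a median change of -0.395. Of 519 genes of 200 to 500 kb, 174 fell (33.5%) and 23 rose, with a median of -0.097. In the 4 shorter classes 7.17% to 11.5% of the genes fell, near the 10.3% of all genes, and the medians lay between -0.004 and 0.009. Leaving out single arrays gave 89 to 109 falls in the longest class. In the class of 200 to 500 kb it gave 106 falls without ICRF-193 replicate 2, 104 without ICRF-193 replicate 3 and 114 without vehicle replicate 2, and 12 rises without ICRF-193 replicate 2 and 15 without ICRF-193 replicate 3. With the replicate block 36 rose in that class. The 91 genes that fell by at least 1.5-fold had a median span of 551.1 kb, the 53 that rose by as much one of 20.7 kb, and all tested genes one of 25.5 kb.

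**Figure D1:**
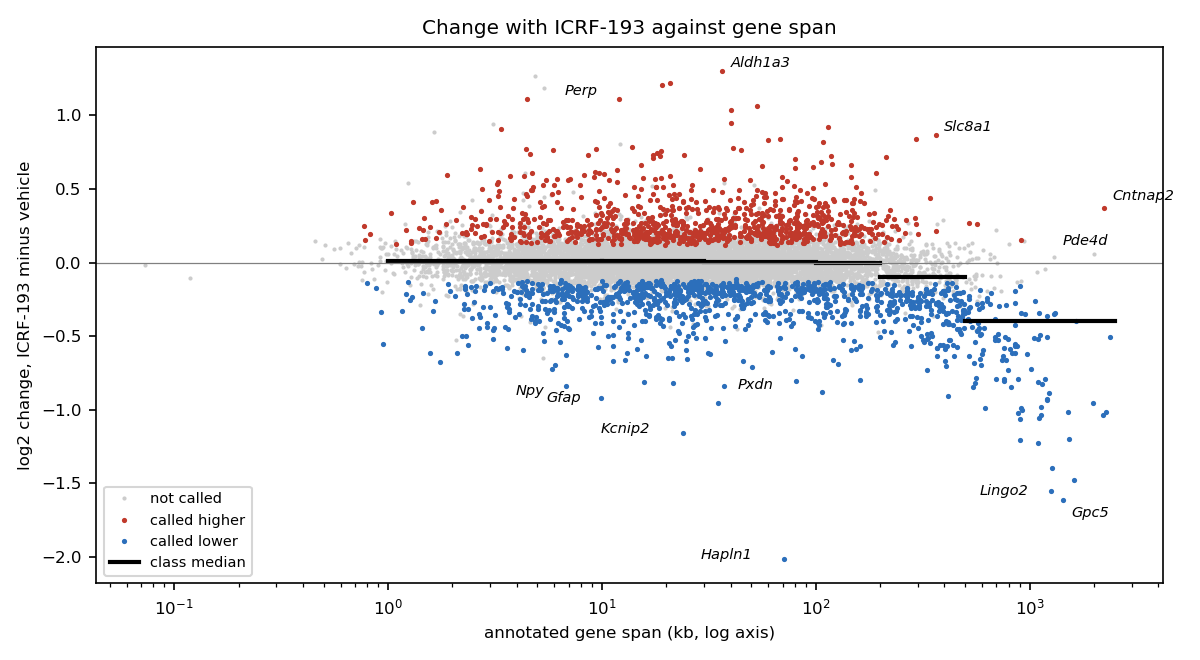
Log2 change of each tested gene (ICRF-193 minus vehicle, y axis) against its annotated span in kb on a log axis, with rises in red, falls in blue, genes not called in grey and the median of each span class as a black bar. The median is near 0 up to 200 kb, -0.097 from 200 to 500 kb and -0.395 above 500 kb, and the largest fall, Hapln1, lies at 71.3 kb.

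The genes with the largest falls were mostly neuronal surface proteins of more than 500 kb. Gpc5, a glypican (a heparan sulfate proteoglycan of the cell surface), read 8.06, 8.14 and 7.97 with ICRF-193 and 9.79, 9.79 and 9.43 with vehicle. That is a 3.06-fold fall (-1.61 ± 0.098, adjusted p = 0.000125), with more than 1 log2 unit between the nearest arrays of the groups. Lingo2, a leucine-rich repeat membrane protein, read 7.22, 7.10 and 7.00 against 8.73, 8.73 and 8.52, a 2.93-fold fall. Nrxn3, a presynaptic neurexin that binds neuroligins, read 9.05, 8.99 and 8.97 against 10.57, 10.54 and 10.33, a 2.79-fold fall. Cntn5, a contactin of the immunoglobulin superfamily, fell 2.63-fold. Dcc, the netrin receptor that steers growing axons, was tight within groups, at 8.39, 8.44 and 8.41 against 9.65, 9.67 and 9.60, and fell 2.34-fold. Rbfox1, a splicing regulator of neurons, read 10.18, 10.26 and 10.15 against 11.38, 11.40 and 11.42 and fell 2.30-fold. Tenm1, Nrg3, Lsamp, Opcml, Nell1 and Ptprd fell by 2.02-fold to 2.08-fold on their brightest probe sets, though another probe set of Ptprd rose. They encode a teneurin, a neuregulin ligand of ErbB receptors, a pair of GPI-anchored adhesion proteins of the IgLON family, a secreted protein with EGF repeats and a receptor phosphatase that binds synaptic partners.

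**Figure D2:**
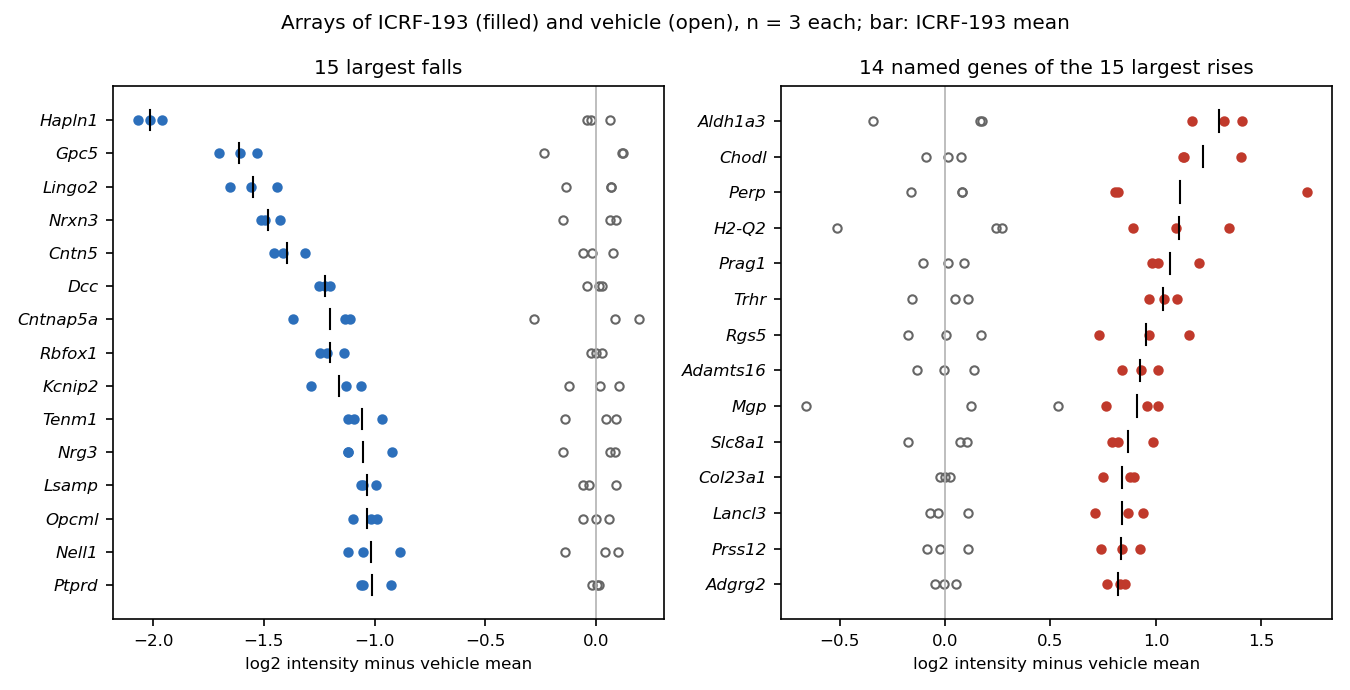
Log2 intensity of each array relative to the gene's vehicle mean (x axis) for the 15 largest falls and for the 14 genes with established names among the 15 largest rises, with ICRF-193 arrays filled, vehicle arrays open and the ICRF-193 mean as a bar (n = 3 each). The genes were chosen with filled and open points apart, the falls reach -2.01 for Hapln1 (to a level under the test limit), and 1 ICRF-193 array of Perp lies apart from the other 2.

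Lists of neuronal genes by function overlap the span classes, and many of their leading falls are genes above 500 kb counted there. Over all tested genes 10.3% fell and 8.29% rose. Of 53 synaptic adhesion genes, 26 fell (49.1%) and 3 rose (5.66%), with a median of -0.174. There was 1 rise without any 1 ICRF-193 array or without vehicle replicate 1. Besides Lingo2, Nrxn3, Cntn5 and Cntnap5a (-1.20 ± 0.12), this list held Nlgn1, the postsynaptic neuroligin, which read 8.93, 8.90 and 8.93 against 9.95, 9.94 and 9.84 and fell 1.98-fold. Of 19 protocadherins, homophilic adhesion proteins, 4 fell (21.1%) and 2 rose (10.5%). Pcdh11x (-0.99 ± 0.14), Pcdh7 (-0.90 ± 0.11) and Pcdh9 (-0.79 ± 0.038) had the largest falls, and the rise of Pcdh18 was 0.51 ± 0.049. Of 33 genes of the neural extracellular matrix, 13 fell and 3 rose, 5 without vehicle replicate 3 (median -0.123), led by Hapln1 and Gpc5, with Pxdn, a peroxidase of basement membranes, at -0.80 ± 0.045 and Tnr, the tenascin of perineuronal nets, at -0.70 ± 0.14.

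Axon guidance genes gave 15 falls (37.5%) and 5 rises (12.5%) among 40. After Dcc the largest falls were those of Robo1, the Slit receptor (-0.72 ± 0.098), Unc5c, a repulsive netrin receptor (-0.58 ± 0.044), and Efna5, an ephrin ligand (-0.57 ± 0.098). The count of falls was 6 without ICRF-193 replicate 2 or replicate 3, 9 without ICRF-193 replicate 1 and 8 without vehicle replicate 1 or replicate 2. Among 20 neurotrophins, neuregulins and their receptors 10 fell and 2 rose (0 rises without ICRF-193 replicate 1 or 2 or vehicle replicate 2, and 1 without ICRF-193 replicate 3), with Nrg3 (-1.05 ± 0.079), the sortilin-like receptors Sorcs3 (-0.62 ± 0.070) and Sorcs2 (-0.56 ± 0.070) and the EGF receptor Egfr (-0.57 ± 0.093) at the head. Ngfr, the p75 neurotrophin receptor, did not pass: it read 7.19, 7.23 and 7.09 against 7.41, 7.18 and 7.41, and the groups overlapped.

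Of 20 glutamate receptor genes, 7 fell and 2 rose, with 0 rises without ICRF-193 replicate 2 or 3, 1 without any other array and 4 with the replicate block. Grm7, a presynaptic metabotropic receptor, read 10.23, 10.15 and 10.01 against 11.19, 11.19 and 11.01 and fell 2.00-fold. Grid1, a delta receptor, fell by 0.80 ± 0.063, Grik2, a kainate receptor subunit, by 0.79 ± 0.11 and Grm5, a postsynaptic metabotropic receptor, by 0.68 ± 0.063. Among 9 GABA receptor genes Gabrb1 fell (-0.45 ± 0.044) and Gabrg1 and Gabrd rose (each by 0.29), with 1 rise without any 1 ICRF-193 array and 2 falls without vehicle replicate 3 or with the replicate block. Of 35 voltage-gated channel genes and their subunits, 14 fell and 3 rose, with Kcnip4 (-0.98 ± 0.059), Cacna2d3 (-0.85 ± 0.11), Kcnq5 (-0.78 ± 0.058) and Kcnh1 (-0.54 ± 0.074) at the head. The falls numbered 9 without ICRF-193 replicate 2, ICRF-193 replicate 3 or vehicle replicate 2, and the rises 1 without any 1 ICRF-193 array. Of 41 genes of synaptic vesicle release, 12 fell and 4 rose (7 with the replicate block). Erc2, a scaffold of the active zone, fell by 0.57 ± 0.044 and Synpr, a vesicle protein, by 0.52 ± 0.055, while the vesicular glutamate transporter Slc17a6 rose by 0.56 ± 0.041 and Rph3a by 0.43 ± 0.062. The falls numbered 6 without ICRF-193 replicate 2 and 7 without ICRF-193 replicate 3 or vehicle replicate 2.

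**Figure D3:**
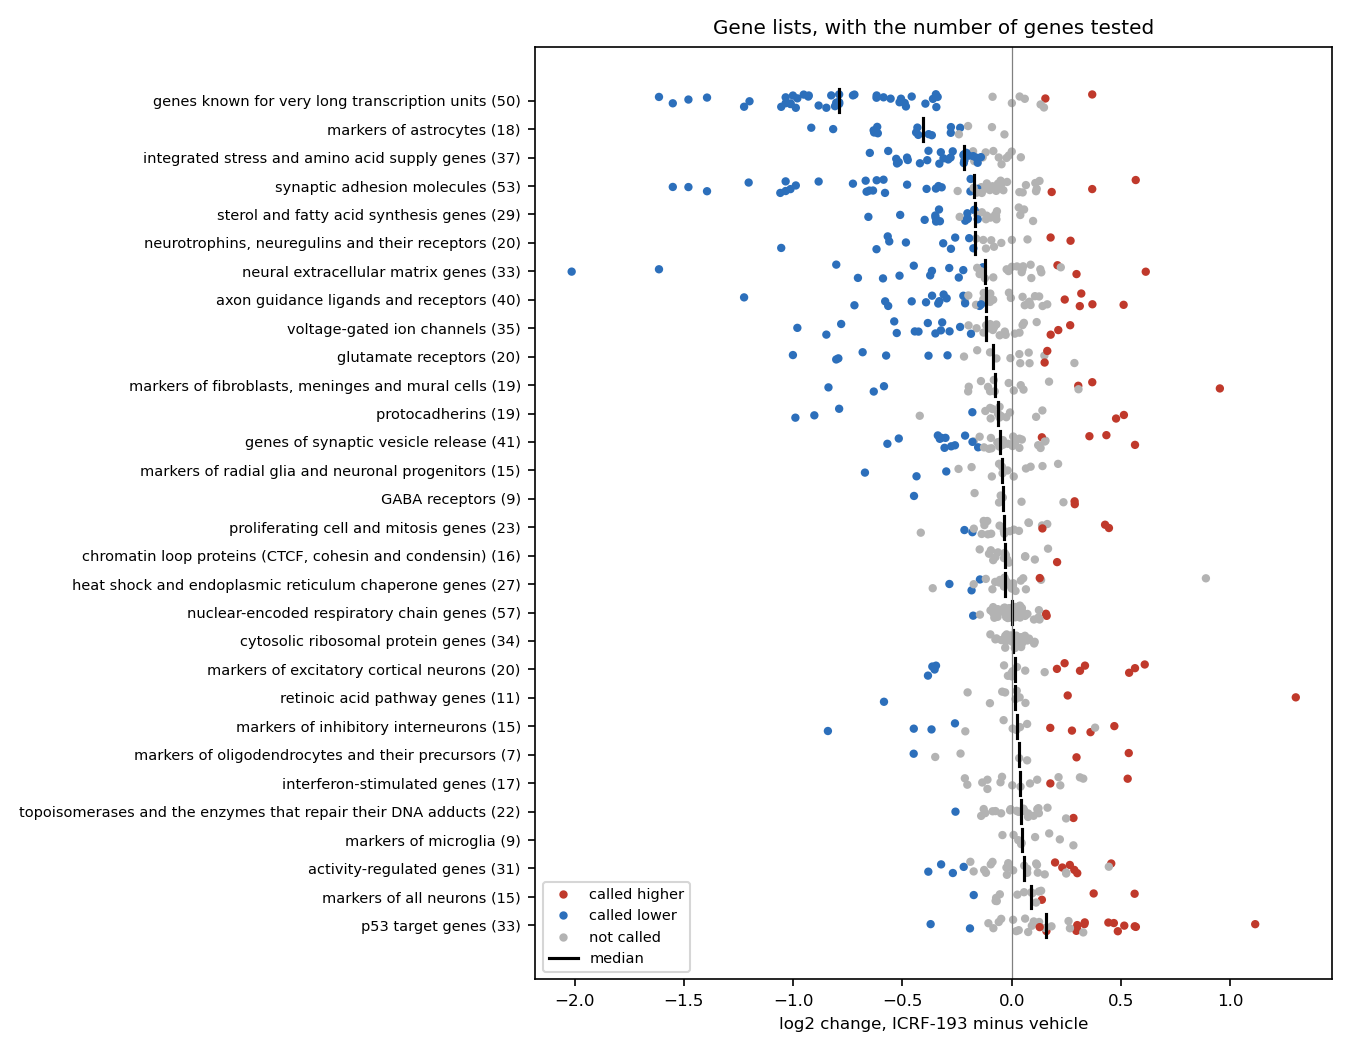
Log2 change (ICRF-193 minus vehicle, x axis) of every tested member of 30 gene lists, 1 point a gene, with rises in red, falls in blue, genes not called in grey, the median as a bar and the number of tested genes in brackets. Genes known for very long transcription units lie lowest (median -0.789), the p53 targets lie highest (median 0.159), and the respiratory chain and ribosomal protein genes stay close to 0.

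Some long genes did not follow the others. Among 50 genes chosen for long transcription units, 42 fell and 2 rose. The genes that rose were Cntnap2, a neurexin-related protein of 2241 kb whose probe sets disagree (below), and Wwox, an oxidoreductase of 913 kb (0.15), with 1 rise in each fit without 1 array other than vehicle replicate 3, and 3 without that array. Over all tested genes above 500 kb the rises were these, Fgf13 (0.27) and Smyd3 (0.26). In this class 1 gene rose without ICRF-193 replicate 1 or 2 or vehicle replicate 2, 2 without ICRF-193 replicate 3 or vehicle replicate 1, and 0 with the mean of probe sets. Singled out after their values were seen, the phosphodiesterase gene Pde4d (1302 kb) changed by 0.04 and Macrod2 (1998 kb) by 0.06, neither of which passed. Lrrtm4, a leucine-rich repeat protein of excitatory synapses that spans 791.3 kb, fell by 0.73 ± 0.051.

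Large falls also occurred in shorter genes. Hapln1, the link protein that ties hyaluronan to proteoglycans in perineuronal nets, spans 71.3 kb and had the largest change measured. Its brightest probe set read 5.32, 5.26 and 5.21 with ICRF-193 and 7.25, 7.34 and 7.23 with vehicle, a change of -2.01 ± 0.046 (adjusted p = 1.77e-06). The vehicle arrays were just above the limit of 7.04 used for testing and the ICRF-193 arrays far below it, so the size of its fall is uncertain. Of its other 3 probe sets, all dim, 2 also fell and the third did not pass. Kcnip2, a subunit of A-type potassium channels with a span of 24.08 kb, read 7.99, 7.76 and 7.92 against 9.07, 8.93 and 9.15 and fell 2.23-fold (adjusted p = 0.000165). Its other probe sets were dim and did not pass. Npy, the neuropeptide Y gene of interneurons, spans 6.798 kb and read 10.26, 10.18 and 10.21 against 11.01, 11.04 and 11.11, a 1.79-fold fall with little spread in either group. Dpysl4, a collapsin response mediator, read 9.80, 9.74 and 9.74 against 10.57, 10.56 and 10.58 and fell 1.75-fold. Of the 91 genes that fell by at least 1.5-fold, 31 spanned at most 100 kb.

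Fewer genes rose strongly, and their spans were ordinary. Aldh1a3, which makes retinoic acid from retinaldehyde, read 8.26, 8.42 and 8.51 with ICRF-193 and 6.75, 7.26 and 7.27 with vehicle, a 2.46-fold rise (1.30 ± 0.14, adjusted p = 0.0012). A further probe set of the gene rose and the dimmest did not pass. Among 11 genes of the retinoic acid pathway, 2 rose and 1 fell: Aldh1a3, the carrier Rbp4 (0.26 ± 0.060) and, downwards, the related enzyme Aldh1a2 (-0.58 ± 0.13). There was 1 rise without ICRF-193 replicate 2 or 3 or vehicle replicate 1 or 2, 3 rises without vehicle replicate 3, and 0 falls without ICRF-193 replicate 2 or 3 or vehicle replicate 2. With the replicate block 2 fell. Chodl, the membrane lectin chondrolectin, read 8.18, 8.45 and 8.18 against 7.06, 7.12 and 6.96 and rose 2.33-fold. Trhr, the receptor of thyrotropin-releasing hormone, read 9.34, 9.40 and 9.27 against 8.35, 8.41 and 8.15 and rose 2.05-fold. Prag1, a pseudokinase scaffold, rose 2.09-fold. Lower on the list were Slc8a1, the sodium-calcium exchanger (0.87 ± 0.083), Col23a1, a membrane collagen (0.84 ± 0.048), Prss12, the synaptic protease neurotrypsin (0.83 ± 0.065), Lancl3 (0.84 ± 0.071), Adamts16 (0.92 ± 0.074) and the adhesion receptor Adgrg2 (0.82 ± 0.043). For Adgrg2, Lancl3 and the class I histocompatibility gene H2-Q2 (1.11 ± 0.21) the vehicle mean lay under the test limit.

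A few rises rested on arrays that differed among themselves. Mgp, a matrix protein of vessel wall and cartilage, read 10.36, 10.56 and 10.61 with ICRF-193 and 8.95, 9.73 and 10.14 with vehicle, a rise of 0.91 ± 0.26 (adjusted p = 0.0475), less than the distance between the lowest and the highest vehicle array. It did not pass without any 1 ICRF-193 array or without vehicle replicate 2. Rgs5, a marker of pericytes, read 8.51, 8.32 and 8.08 against 7.52, 7.35 and 7.17 (0.95 ± 0.12). The summed intensity of the whole fibroblast, meninges and mural list overlapped between groups, as given above. Its members split, with 3 rises (Rgs5, Tagln and Fbln1) and 3 falls (Slc6a13, Igf2 and Aldh1a2). There was 1 rise in each fit without 1 array other than vehicle replicate 3, and 5 with the replicate block. In the 3 genes that fell, vehicle replicate 3 was the highest array. Igf2 read 10.69, 10.68 and 10.67 against 11.12, 11.21 and 11.60. Without it the changes were -0.487 for Igf2, -0.668 for Slc6a13 and -0.445 for Aldh1a2, and all 3 passed. The part of such cells in these results was not tested.

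Targets of p53, the transcription factor that responds to DNA damage, included several that rose with ICRF-193. Of 33 measured targets 14 rose (42.4%, against 8.29% of all genes) and 2 fell, with a median of 0.159. With topotecan the median was 0.269 and no member passed in the limma fit, with 6 at an unadjusted p below 0.05. The test of the difference passed for 0 of the 33, with 4 at an unadjusted p below 0.05. Perp, a membrane protein linked to cell death, read 8.81, 8.80 and 9.71 against 8.07, 8.07 and 7.83. ICRF-193 replicate 3 was the highest by a wide margin, the groups did not overlap, and the rise was 1.11 ± 0.23. Ckap2, a spindle protein, read 8.68, 8.90 and 9.02 against 8.14, 8.34 and 8.41 (0.57 ± 0.097). Pmaip1, the death-promoting protein Noxa, read 9.39, 9.67 and 9.60 against 8.73, 9.07 and 9.18 (0.56 ± 0.12), and Trp53inp1, a stress protein of the same pathway, rose by 0.51 ± 0.095. In Ckap2 and Pmaip1 the lowest ICRF-193 array and the highest vehicle array lay close together.

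Textbook targets of p53 rose too. Cdkn1a, the cell cycle inhibitor p21, read 11.74, 11.81 and 11.79 with ICRF-193 and 11.07, 11.29 and 11.54 with vehicle, a 1.40-fold rise with a wide spread among the vehicle arrays (0.49 ± 0.10, adjusted p = 0.0178). Mdm2, the ligase that degrades p53, rose by 0.30 ± 0.049. Outside the rule for naming, and chosen after their values were seen, the targets that fell were Tigar (-0.37), a regulator of glycolysis, and Zmat3 (-0.19). The count of rises was 6 without ICRF-193 replicate 2 or replicate 3, and 9 without ICRF-193 replicate 1 or vehicle replicate 2. Of 23 genes of proliferating cells 3 rose and 2 fell, against 8.29% and 10.3% of all genes. The share of falls, 8.7%, was not above that of all genes, and the median change of the list was -0.036. Cenpa (0.44 ± 0.046) and Ube2c (0.43 ± 0.046) rose, Mcm2 (-0.18 ± 0.052) and Ccnd2 (-0.22 ± 0.062) fell, and the proliferation marker Mki67 differed by -0.42 without passing. The falls of this list were lost without any 1 ICRF-193 array or without vehicle replicate 2, and numbered 4 without vehicle replicate 3. They were also lost with new quantile normalization.

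Genes of the integrated stress response and of amino acid supply were lower with ICRF-193. Of 37 measured, 26 fell (70.3%, against 10.3% of all genes) and none rose by limma, also at an unadjusted p below 0.05, with a median of -0.218. The summed intensity of the list was 65708 to 66911 on the ICRF-193 arrays and 77169 to 80166 on the vehicle arrays. Mthfd2, a mitochondrial enzyme of folate metabolism, read 9.34, 9.40 and 9.24 against 10.05, 10.05 and 9.83, a 1.57-fold fall. Slc7a3, a carrier of cationic amino acids, read 10.79, 10.61 and 10.57 against 11.38, 11.23 and 11.06 (-0.57 ± 0.089). Slc7a11, the cystine carrier, read 6.81, 6.61 and 6.75 against 7.27, 7.32 and 7.16 (-0.53 ± 0.064), with ICRF-193 levels under the test limit, and Psph, the last enzyme of serine synthesis, fell by 0.52 ± 0.048. In each of these genes the groups were separate. The count of falls was 17 without ICRF-193 replicate 2 or replicate 3, and the median stayed between -0.246 and -0.213 in all 6 fits that left out 1 array. With topotecan at 300 nM the median was -0.188 and no member passed in the limma fit, with 8 at an unadjusted p below 0.05. The effects of the drugs differed in 0 of the 37, with 2 at an unadjusted p below 0.05. Members named after their values were seen include Atf4, the transcription factor of the response, at -0.31, and the tRNA synthetase genes Aars (-0.42), Tars (-0.32), Iars (-0.22), Yars (-0.20) and Gars (-0.16), all of which passed.

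ATF4 binds, with C/EBP partners, an element in the promoters of many of these genes, and its letters are shown because the genes moved together. RefSeq promoter windows (build GRCm38.p6, 250 bases before to 50 after the gene start) were found for 32 of the 37 genes and searched on both strands for TGATGNAA. The list holds known ATF4 targets, so a high share is built into its choice. The element was present in 14 of the 32 windows (43.8%) and in 10 of the 22 windows of genes that fell (45.5%), against 229 of 8843 windows of all tested genes with an entry (2.59%) and 3.97% of all 32851 windows. A match describes letters in a window and not a bound site. Of the 10 windows of genes that fell, the matches of 9 genes are printed below in 30 bases each, and the remaining window is not shown. Each is on the strand that reads TGATGNAA, with the element in capitals.

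Chac1, chr2:119351038-119351067, - strand: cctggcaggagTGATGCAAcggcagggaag
Asns, chr6:7693214-7693243, - strand: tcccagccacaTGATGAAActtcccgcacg
Slc7a11, chr3:50443661-50443690, - strand: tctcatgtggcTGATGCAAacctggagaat
Slc7a11, chr3:50443642-50443671, + strand: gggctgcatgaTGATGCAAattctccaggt
Slc1a4, chr11:20332699-20332728, + strand: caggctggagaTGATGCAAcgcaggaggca
Herpud1, chr8:94386306-94386335, - strand: ggggtgcgggcTGATGCAAcccgccgtggt
Gars, chr6:55037960-55037989, - strand: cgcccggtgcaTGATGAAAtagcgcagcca
Tars, chr15:11399655-11399684, + strand: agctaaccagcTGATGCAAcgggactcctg
Iars, chr13:49682126-49682155, - strand: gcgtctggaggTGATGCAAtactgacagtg
Yars, chr4:129189895-129189924, + strand: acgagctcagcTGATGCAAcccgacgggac

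The cystine carrier gene held 2 matches that face each other, 66 and 47 bases before its start. The 250 bases before the start of Slc7a11 (chr3:50443614-50443863, - strand) are shown for this arrangement, with both in capitals.

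Slc7a11: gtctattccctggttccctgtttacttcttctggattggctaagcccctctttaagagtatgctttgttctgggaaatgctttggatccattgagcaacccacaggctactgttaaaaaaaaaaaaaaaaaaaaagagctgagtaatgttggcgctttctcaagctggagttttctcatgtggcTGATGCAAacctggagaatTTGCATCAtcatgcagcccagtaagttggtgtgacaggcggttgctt

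A window with the element did not always go with a fall. Trib3, Nupr1, Vldlr and Pck2, also from the list, held it and did not pass, with changes of -0.17, -0.02, 0.04 and 0.00. Of 27 chaperone genes, which answer to heat shock or to unfolded protein in the endoplasmic reticulum, 3 fell and 1 rose. The share of falls, 11.1%, was near the 10.3% of all genes. The falls were Pdia4 (-0.29 ± 0.060), Dnajc3 (-0.18 ± 0.050) and Pdia6 (-0.15 ± 0.036), and Dnajb5 rose by 0.13 ± 0.035, a rise that passed in none of the fits without 1 array. The falls numbered 0 without ICRF-193 replicate 2 or 3 or vehicle replicate 1, 1 without ICRF-193 replicate 1, 5 without vehicle replicate 3 and 6 with the replicate block.

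Genes of sterol and fatty acid synthesis were lower as well. Of 29 measured, 15 fell (51.7%, against 10.3% of all genes), with a median of -0.170. None rose by limma, also at an unadjusted p below 0.05. Srebf1, the transcription factor that drives lipid synthesis genes, read 8.84, 8.73 and 8.75 with ICRF-193 and 9.55, 9.38 and 9.37 with vehicle, a 1.58-fold fall. Scd1, a fatty acid desaturase, read 9.14, 9.03 and 9.30 against 9.61, 9.54 and 9.84 (-0.51 ± 0.093). The cholesterol enzymes Msmo1 (-0.40 ± 0.054) and Cyp51 (-0.35 ± 0.053) also fell. The groups did not overlap in any of these 4 genes. The list's summed intensity was 75609 to 76771 with ICRF-193 and 83303 to 85699 with vehicle. With topotecan at 300 nM the median of the same list was 0.118 and no member passed in the limma fit, with 6 at an unadjusted p below 0.05. The effects of the drugs differed in 0 of the 29, with 6 at an unadjusted p below 0.05.

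Markers of astrocytes fell as a group. Of 18 measured, 14 fell (77.8%, against 10.3% of all genes), with a median of -0.404. None rose by limma, also at an unadjusted p below 0.05. The summed intensity was 36903 to 40895 on the ICRF-193 arrays against 48606 to 53391 on the vehicle arrays. Gfap, the intermediate filament of astrocytes, varied widely, with 9.66, 9.06 and 8.94 against 10.55, 10.09 and 9.78 (-0.92 ± 0.23, adjusted p = 0.0312). Aqp4, the water channel of their endfeet, read 10.88, 10.42 and 10.44 against 11.53, 11.45 and 11.20 (-0.82 ± 0.13). The bicarbonate carrier Slc4a4 (-0.63 ± 0.10) and the neurotensin receptor Ntsr2 (-0.63 ± 0.066) fell too. With topotecan 7 of the 18 fell and the median was -0.843, and the effects differed in 4, with that of ICRF-193 higher. These transcripts were well within the tested range in a culture labelled as cortical neurons. Radial glia and progenitor markers gave 3 falls among 15, in Hes5 (-0.67 ± 0.10), Fabp7 (-0.44 ± 0.078) and Notch1 (-0.30 ± 0.052), and 1 rise with the replicate block, with a summed intensity of 30199 to 32366 against 32549 to 34837. The part of astrocytes and progenitors in the falls of other genes was not tested.

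Markers of neurons were called in both directions. Of 15 general neuronal markers 3 rose (20.0%) and 1 fell (6.67%), against 8.29% and 10.3% of all genes. Their summed intensity was 82103 to 86020 with ICRF-193 and 77702 to 81974 with vehicle. The neurofilament genes Nefm (0.56 ± 0.099) and Nefl (0.37 ± 0.059) and the release protein Snap25 (0.14 ± 0.039) rose, and Map2, a dendritic cytoskeleton protein, fell (-0.17 ± 0.049), though not in any fit without 1 array other than vehicle replicate 3. With the replicate block 5 rose. The rises numbered 2 in each fit without 1 array other than vehicle replicate 2, and 3 without that array. Among 20 markers of excitatory cortical neurons 7 rose (35.0%) and 4 fell (20.0%). Cux2, a factor of upper layers, read 9.51, 9.60 and 9.48 against 8.88, 8.88 and 9.01 and rose 1.52-fold. Slc17a6 and Ccn2, also of this list, rose too, and Fezf2, a factor of deep layers, fell by 0.38 ± 0.069. A difference between cortical layers was not tested. Among 15 interneuron markers 4 rose and 4 fell (26.7% each), with 2 rises without ICRF-193 replicate 2 or 3. Npy, Reln (-0.45 ± 0.083) and Nos1 (-0.37 ± 0.048) were lower and Cck was higher (0.47 ± 0.041). Of 7 oligodendrocyte genes, Mbp (0.54 ± 0.066) and Cspg4 (0.30 ± 0.044) rose and Pdgfra fell (-0.45 ± 0.13), the fall of Pdgfra not passing without any 1 ICRF-193 array or without vehicle replicate 2. With the replicate block 3 fell.

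No microglial gene of 9 and no endothelial gene of 3 passed in the limma fit, and 1 of each was higher at an unadjusted p below 0.05. There was 1 microglial rise with the replicate block or without vehicle replicate 3 and 2 without vehicle replicate 2, and 1 endothelial rise without vehicle replicate 1. Of 31 activity-regulated genes, 6 rose (19.4%, against 8.29% of all genes) and 4 fell (12.9%, against 10.3%). Ier5 rose by 0.46 ± 0.051 and Btg2 by 0.30 ± 0.067, and Npas4 fell by 0.38 ± 0.10 and Scg2 by 0.32 ± 0.064. Fos read 10.73, 10.73 and 10.82 against 10.44, 10.66 and 10.85 and overlapped between groups. These counts were 2 rises and 0 falls without ICRF-193 replicate 2 or 3, 3 rises without vehicle replicate 1 or 2, and 2 falls without ICRF-193 replicate 1 or vehicle replicate 2. With the replicate block 10 rose. Among 17 interferon-stimulated genes Psmb9 (0.53 ± 0.15) and Trim25 (0.18 ± 0.047) rose, in no fit that left out 1 of the arrays other than vehicle replicate 3. With the replicate block 4 rose and 1 fell. None of 34 cytosolic ribosomal protein genes passed in the limma fit (1 at an unadjusted p below 0.05), and 2 rose and 1 fell of 57 respiratory chain genes (Ndufa5 and Sdhc by 0.16, Ndufb9 by -0.18). Of the respiratory chain genes 0 passed in the limma fits without ICRF-193 replicate 2 or 3, and 4 rose and 2 fell without vehicle replicate 3.

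When each probe set was tested separately, 1882 of 45101 passed (4.17%), 737 higher (1.63%) and 1145 lower (2.54%). They included 346 probe sets without a single gene symbol, of which 84 were higher and 262 lower. Of 271 genes with more than 1 probe set past the threshold, 262 moved in 1 direction and 9 had probe sets both higher and lower. For these genes the direction given elsewhere is that of the brightest probe set. Cntnap2 had a bright probe set at 0.37 ± 0.053 and a dimmer one at -1.20 ± 0.078, and its mean over probe sets was -0.289. Ptprd had 5 lower probe sets, from -1.01 to -1.36, and a dim one that rose by 0.77 ± 0.15. Ube3a, the ubiquitin ligase of Angelman syndrome, rose on its brightest probe set, at 11.55, 11.59 and 11.57 against 11.32, 11.37 and 11.31 (0.23 ± 0.047 in this fit), and fell on a dim one (-0.30 ± 0.059). The other split genes were Anks1b, Fam184b, Ciapin1, Trim9, Epm2aip1 and Cdadc1. Nrxn3 differed within the gene too, although no probe set of it rose. Its 3 called probe sets changed by -1.48, -1.58 and -1.59, and another of similar brightness, at a mean of 9.2 in both groups, changed by -0.01 ± 0.069.

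**Figure D4:**
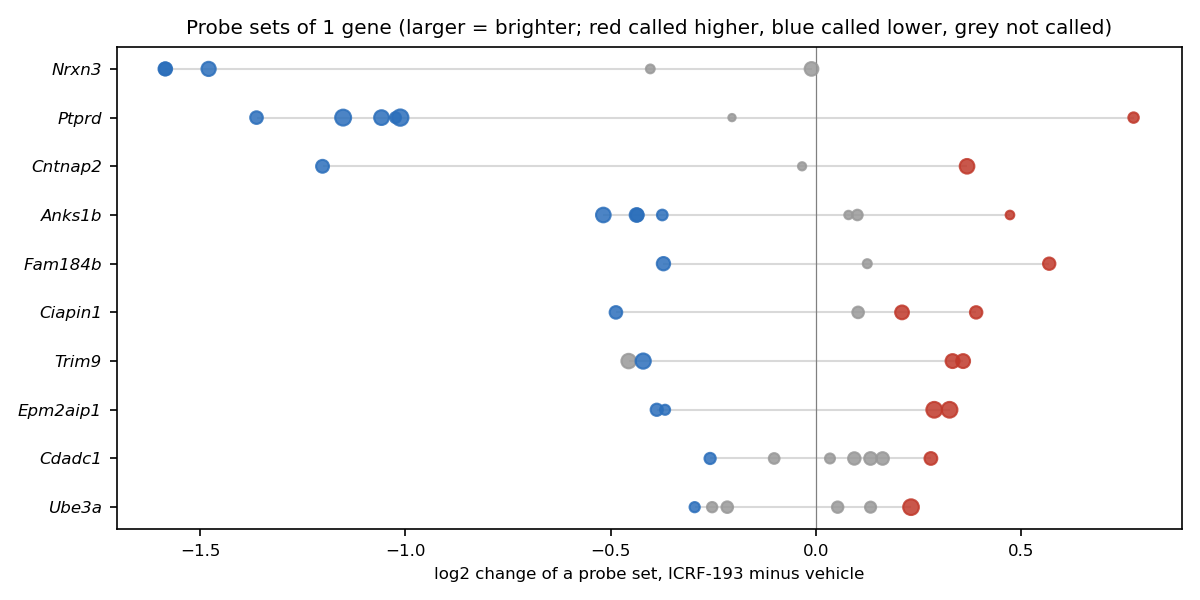
Log2 change (ICRF-193 minus vehicle, x axis) of each probe set of Nrxn3 and of the 9 genes with probe sets called in both directions, with larger points for brighter probe sets, red for higher, blue for lower and grey for not called. Cntnap2 runs from -1.20 to 0.37 and Nrxn3 from -1.59 to -0.01.

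The effect of ICRF-193 was then set against that of topotecan at 300 nM, the other drug on this array type, which inhibits topoisomerase I. Each drug had 3 arrays and its own 3 vehicle arrays. The doses differ, and the topotecan arrays have mean intensities of 682.3 to 698.3, so that drug, dose and experiment cannot be told apart. With topotecan 4.4% of the genes passed, 1.3% higher and 3.1% lower. For Gpc5, Nrxn3 and Dcc the standard errors were 0.348, 0.231 and 0.245 with topotecan and 0.098, 0.066 and 0.037 with ICRF-193. A smaller share past the threshold is then not a smaller effect. The same limit holds for the lists above in which no member passed with topotecan. The difference of the effects passed for 393 genes (3.6%), 263 (2.41%) with a higher and 130 (1.19%) with a lower value of ICRF-193 minus topotecan. Of the 1126 genes that fell with ICRF-193, 152 differed (13.5%), and in 122 of these the ICRF-193 effect lay above that of topotecan. Of the 905 that rose, 21 differed (2.32%). The count depended on single arrays. It was 136 to 160 without any 1 of the ICRF-193 or vehicle arrays, 615 and 244 without topotecan replicate 1 and 2, and 1048 and 637 without topotecan vehicle replicate 1 and 3. It was 115 in a fit with the replicate number within each experiment as a block, although the topotecan numbers do not pair their arrays.

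In most long genes that differed, topotecan went lower. Above 500 kb, 75 of 150 genes differed with the ICRF-193 effect higher and 1 with it lower, and the medians were -0.395 for ICRF-193 and -1.487 for topotecan. Gpc5 changed by -1.61 with ICRF-193 and by -4.63 with topotecan, a difference of 3.02 ± 0.41 (adjusted p = 0.00396). Ccser1, a gene of 1203 kb, changed by -0.36 and -3.12, and Kcnip4 by -0.98 and -3.24. Rbfox1 was not among the genes whose effects differed (-1.20 against -1.17). The exception above 500 kb was Lrrtm4, at -0.73 with ICRF-193 and 0.55 with topotecan, a difference of -1.27 ± 0.19 (adjusted p = 0.00568).

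In 43 genes the effect of ICRF-193 went further in its own direction than that of topotecan, 30 of them falls and 13 rises. Kcnip2 changed by -1.16 with ICRF-193 and by -0.08 with topotecan, a difference of -1.08 ± 0.16 (adjusted p = 0.00572). Pxdn changed by -0.80 and 0.71 (difference -1.51 ± 0.19) and Dpysl4 by -0.81 and 0.36 (difference -1.17 ± 0.16). Among genes singled out after their values were seen, Fzd9, a Wnt receptor, changed by -0.61 and 0.26, Kit, a receptor kinase, by 0.41 and -0.35, and Cabp7, a calcium-binding protein, by 0.60 and -0.32, and each difference passed. The difference did not pass for Hapln1 (adjusted p = 0.593), whose levels with ICRF-193 were under the test limit. Npy changed by 0.31 with topotecan, and its difference of -1.16 ± 0.85 did not pass either.

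**Figure D5:**
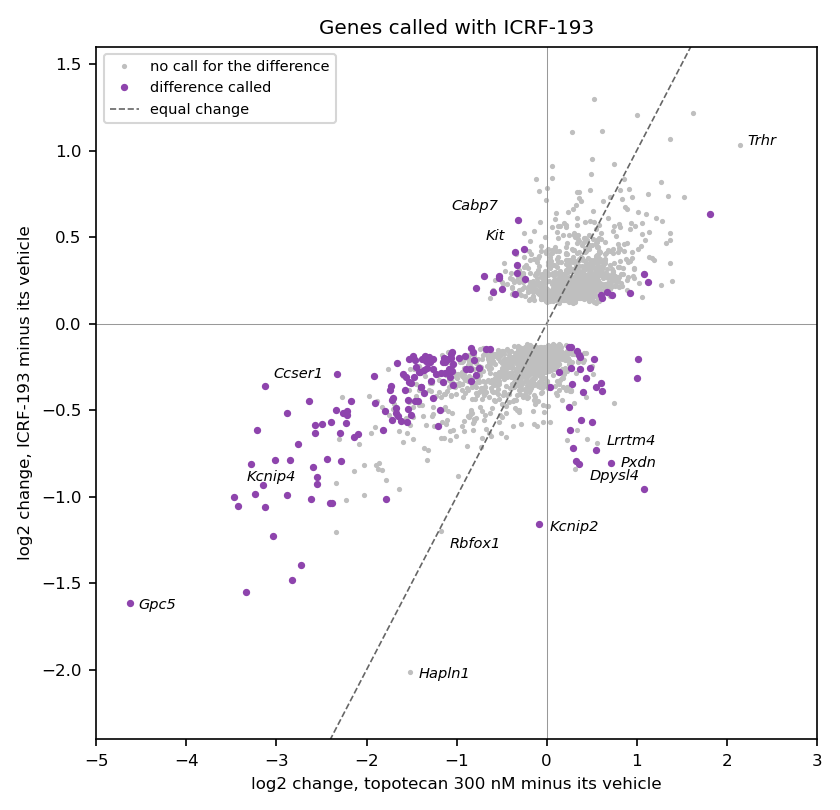
Log2 change with ICRF-193 at 3 µM (y axis) against that with topotecan at 300 nM (x axis), each against its own vehicle, for the 2031 genes called with ICRF-193, with genes whose 2 effects differed in purple and equal change as a dashed line. Purple points lie mostly among falls that are larger with topotecan, and Kcnip2, Pxdn, Dpysl4 and Lrrtm4 lie where ICRF-193 alone was called lower.

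Neurons with lentiviral shRNA against Top2b, on the later gene-level array, were set beside the drug. The control was a scrambled shRNA, each group had 3 arrays, and the neurons had the same strain and age in culture. Top2b read 9.30, 8.39 and 8.17 with the control shRNA and 8.62, 6.87 and 6.80 with the Top2b shRNA. In the fit with the replicate number as a block it fell by 1.19 ± 0.21 (adjusted p = 0.0384). Without the block it did not pass (adjusted p = 0.278). Replicate 1 of both groups was deposited at another level, with median log2 values of 5.50 and 5.52 against 4.73 to 4.82. Without the block 2.71% of 13308 genes passed (1.5% higher, 1.21% lower), and with it 8.84% (4.43% higher, 4.41% lower). With the block, of 1086 genes lower with ICRF-193 and measured there, 81 fell (7.46%) and 55 rose (5.06%). Of 828 genes higher with ICRF-193, 69 fell (8.33%) and 42 rose (5.07%), so the share of falls did not follow the direction with the drug. Of all 10158 shared genes 4.8% fell and 4.17% rose. The medians were -0.217 for the genes lower with ICRF-193, -0.089 for those higher and -0.077 for all shared genes. Of 150 genes above 500 kb, 15 fell, 6 rose and the median was -0.499.

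Single genes on the shRNA arrays are given by their blocked values, although replicates 2 and 3 were not shown to pair by number. Of 78 genes chosen for naming that fell with ICRF-193, 14 fell and 3 rose, and of 45 that rose with ICRF-193, 5 fell and 2 rose. Kcnip2 fell by 1.28 (adjusted p = 0.0234), Tenm1 by 1.67 (adjusted p = 0.0308) and Cntnap5a by 1.17 (adjusted p = 0.027). The 3 that rose with the shRNA after falling with ICRF-193 were Egfr by 1.64 (adjusted p = 0.0229), Notch1 by 1.05 (adjusted p = 0.0285) and Npas3 by 0.97 (adjusted p = 0.0407). Hapln1 was at -1.52 (adjusted p = 0.0892) and Gpc5 at -0.37 (adjusted p = 0.255), and neither passed. Aldh1a3, the largest rise with ICRF-193, fell by 1.04 with the shRNA (adjusted p = 0.0457), and Lancl3 fell by 1.55 (adjusted p = 0.0305). Ccn2 and Ckap2 rose with both. The array types, the agents and the controls differ between these experiments, and no test of the difference was made.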

How the data were processed

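The authors deposited intensities on a linear scale, 1 per probe set, made with Affymetrix Expression Console and RMA per the submitters' processing notes. Which arrays shared a normalization, and the software versions, are not given in the sources used here. The values were turned to log2 and tested with limma 3.58.1 (R 4.3.3; lmFit, eBayes, 2-sided, Benjamini-Hochberg threshold 0.05). A gene was its brightest probe set with 1 gene symbol (34958 of 45101; 932 have several and 9211 none), and genes whose mean over the 12 arrays of the type lay below the 40th percentile were dropped. Named here are the 15 largest rises and falls with separate groups, up to 4 members past the threshold in each of 31 lists, the 10 largest differences from topotecan each way, split genes and a fixed set of topoisomerase and synaptic genes. Members and lists were chosen with earlier results of these data known. Spans come from RefSeq GRCm38.p6, where 99.12% of genes matched. The same-numbered ICRF-193 and vehicle arrays deviated together (correlations 0.38, 0.225 and 0.382), and the block took the numbers to pair them. The main ICRF-193 values come from the fit without the block and do not use this pairing. Same-numbered shRNA arrays gave 0.434, 0.375 and 0.34. Top2b shRNA replicate 2 with control replicate 3 gave 0.384, and replicate 3 with control replicate 2 gave 0.299. That sets replicate 1 apart and does not show that replicates 2 and 3 pair by number. The scripts were tested on simulated data. The number of arrays limits the precision: 3 against 3 cannot give a permutation p below 0.1. A further 38 columns of per-sample values, of other arrays, were not used.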

Additional observations from a re-analysis of the deposited data

Results flagged for a closer look

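The effects of ICRF-193 and topotecan at 300 nM differed, by the test of the difference itself, in 393 genes. Among the 10 named genes in which the value of ICRF-193 minus topotecan was highest, the differences were 3.02 for Gpc5, 2.76 for Ccser1, 2.60 for Npas3, 2.47 for Ctnna2 and for Grm7, 2.38 for Gpc6, 2.37 for Nrg3, 2.26 for Kcnip4, 2.23 for Pcdh9 and 2.22 for Nkain2. These are long genes, and all of them fell with ICRF-193. Nlgn1 differed by 1.89 and Nrxn3 by 1.35. A predicted gene, counted but not named, had the lowest value, at -2.04. Among the named genes in which it was lowest, the differences were -1.51 for Pxdn, -1.42 for Abca8a, -1.31 for Rasl10a, -1.27 for Lrrtm4, -1.22 for Rprm, -1.18 for Ctxn2, -1.17 for Dpysl4, and -1.13 for Oma1 and for Rab33a. Of these, Abca8a, Oma1 and Rab33a did not change past the threshold with ICRF-193. Groups of 3 arrays are too small for a test of outlying arrays, and none was made.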

How the results depend on the processing

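Against 2031 genes as reported, 1286 (625 higher and 661 lower) passed with no filter on dim genes, 2889 (1385 higher, 1504 lower) with the replicate block, and 39 (12 higher and 27 lower) with the spread shared over the 12 arrays of the type. Leaving out 1 array gave 885 to 2822 genes, 355 to 1436 higher and 517 to 1386 lower. Of the 2031 calls, 1056 were kept with no filter, 1835 with new quantile normalization, 1342 with the mean of probe sets and 2019 with the block. Over all probe sets the count was 3206 (1249 higher, 1957 lower, 19 split genes) above the 40th percentile and 3703 (1467, 2236 and 22) with an intensity trend and robust prior. Leaving out 1 array gave 488 to 2619 probe sets, 152 to 979 higher, 336 to 1640 lower and 0 to 10 split genes. For the difference from topotecan, the replicate block gave 115 genes (81 higher, 34 lower), and leaving out 1 array gave 136 to 1048 (107 to 506 higher, 28 to 542 lower). The Top2b shRNA comparison gave 361 genes (200 higher, 161 lower) without and 1177 (590 higher, 587 lower) with the block. Turned in sign were Cntnap2 (-0.289), Ube3a (-0.058) and Top1 (-0.021) as means of probe sets, and 2 genes near 0: Abca8a when 1 array was left out (-0.055, without vehicle replicate 3, to 0.091) and Rab33a (0.012 with quantile normalization; -0.024 to 0.010 when 1 array was left out, with 0.007 without vehicle replicate 1). The cause was not tested. The limits are 3 arrays a group, a treatment time that is not given, unknown array sets in RMA, and dim genes, whose folds are uncertain.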
